A study of Mus musculus with 2 samples.

Results

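The 10 genes described here are the 3 TGF-beta ligands (Tgfb1, Tgfb2 and Tgfb3), the 4 latent TGF-beta binding proteins (Ltbp1, Ltbp2, Ltbp3 and Ltbp4) and the 3 TGF-beta receptors (Tgfbr1, Tgfbr2 and Tgfbr3), measured in sections of mouse heart. They were chosen by symbol from the 19465 genes of the count tables, with earlier results of these data known. All 10 had at least 20 unique molecular identifiers (UMIs) over both sections, as did 15236 genes in all.

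TGF-beta is secreted in a latent form, in which the mature growth factor stays wrapped in its own propeptide, and the propeptide is bound by disulfide bonds to a latent TGF-beta binding protein that anchors the complex to fibrillin microfibrils and fibronectin. Integrins, thrombospondin and proteases release the active ligand, which binds the type II receptor TGFBR2, and TGFBR2 then recruits and phosphorylates the type I receptor TGFBR1, which signals through SMAD2 and SMAD3. In the heart the pathway is best known for turning fibroblasts into matrix-producing myofibroblasts and for the growth of scar and interstitial fibrosis.

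One section came from a control mouse, α-MHC-MerCreMer+/-, and 1 from a transgenic mouse, α-MHC-MerCreMer+/- hTOP2B LSL/-, and both mice had received 1 intraperitoneal dose of 80 mg/kg tamoxifen. In this model the α-MHC promoter drives a tamoxifen-dependent Cre in cardiomyocytes, and in the transgenic mouse the Cre removes a stop cassette in front of a human TOP2B cDNA under a CAG promoter at Rosa26, so the control carries the Cre and the drug but no transgene. The methods give an age of 6 weeks at the single dose, and the strain and the time from tamoxifen to harvest of these sections are not given in the sources used here. The assay was Visium CytAssist for formalin-fixed, paraffin-embedded tissue, which hybridizes probes to each transcript and counts them per spot of an array. Each spot covers a small patch of tissue, with several cells that may differ in type.

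There were 14376300 UMIs over 1256 spots in the control (median per spot 11336) and 12953389 UMIs over 924 spots in the transgenic section (median 14531). UMIs were summed per section and given as counts per 1000000 UMIs (CPM), so that 1 UMI was worth 0.0696 CPM in the control but 0.0772 CPM in the transgenic section. With 1 section of each genotype there is no spread between animals, so no test was run. Intervals in parentheses are 95% intervals that cover counting error only, unless they are marked as quadrants. The 95% intervals are exact Poisson for a level and exact binomial for a share or a ratio. The spread inside a section is given as the range over its 4 quadrants. Where a gene's control range is marked as quadrants, the range after its transgenic level is a quadrant range too. Over the 15236 genes the median log2 ratio of transgenic over control CPM was 0.20, and 63.2% of them had a ratio above 0. The targeted gene could not be checked, since the probe set is not given in the sources used here and it is not known whether the mouse Top2b probes detect the human cDNA. Top2b had 1531 UMIs in the control and 1318 in the transgenic section, which was -0.07 (-0.17 to 0.04) as a log2 ratio.

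The sections also differed in what they held beside heart muscle. Hemoglobin and other erythroid marker genes took 0.215% of the control UMIs and 2.04% of the transgenic UMIs. In 8 control and 54 transgenic spots they held over 10% of the spot's UMIs, and without those spots their share was 0.183% in the control and 0.827% in the transgenic section. Values without these blood-rich spots, an exclusion chosen after the maps were seen are given for the levels, the spatial score, the collagen ranking and the correlations over spots. The 10 cardiomyocyte marker genes measured, among them the troponins Tnnt2 and Tnnc1, held 7.72% of control and 4.45% of transgenic UMIs, and the labelled tissue was thus borne out in both. In summed tissue of this kind, fewer cells of a type and less RNA per cell cannot be told apart.

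Promoter sequences are shown for 4 of the genes, because the results turn on them: Tgfb1 had the most ligand UMIs in both sections, and Tgfb2, Ltbp2 and Ltbp3 had large ratios between the sections. Each is the stretch from 250 bases before to 50 bases after the start of transcription in RefSeq, on build GRCm38.p6, read 5′ to 3′ on the gene's strand, and 8 of the 10 genes, all but Tgfb3 and Tgfbr3, have 12 such entries in all. The Tgfb1 promoter lies at chr7:25686752-25687051 on the plus strand, the Tgfb2 promoter at chr1:186705940-186706239 on the minus strand, the Ltbp2 promoter at chr12:84876442-84876741 on the minus strand and the Ltbp3 promoter at chr19:5740650-5740949 on the plus strand. Capitals mark matches, on either strand, to 5 short motifs that are spelled out after the sequences.
Tgfb1: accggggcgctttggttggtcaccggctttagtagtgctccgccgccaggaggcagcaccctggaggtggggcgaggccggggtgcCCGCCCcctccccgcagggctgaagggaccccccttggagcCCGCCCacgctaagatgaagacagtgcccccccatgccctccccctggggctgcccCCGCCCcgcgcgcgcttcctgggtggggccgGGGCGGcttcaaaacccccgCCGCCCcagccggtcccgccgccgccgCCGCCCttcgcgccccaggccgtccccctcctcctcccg
Tgfb2: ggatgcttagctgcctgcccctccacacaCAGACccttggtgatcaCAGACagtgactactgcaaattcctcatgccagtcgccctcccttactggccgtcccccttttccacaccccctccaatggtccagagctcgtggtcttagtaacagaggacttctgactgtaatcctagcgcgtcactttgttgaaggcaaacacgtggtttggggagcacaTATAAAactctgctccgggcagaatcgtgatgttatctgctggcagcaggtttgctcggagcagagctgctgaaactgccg
Ltbp2: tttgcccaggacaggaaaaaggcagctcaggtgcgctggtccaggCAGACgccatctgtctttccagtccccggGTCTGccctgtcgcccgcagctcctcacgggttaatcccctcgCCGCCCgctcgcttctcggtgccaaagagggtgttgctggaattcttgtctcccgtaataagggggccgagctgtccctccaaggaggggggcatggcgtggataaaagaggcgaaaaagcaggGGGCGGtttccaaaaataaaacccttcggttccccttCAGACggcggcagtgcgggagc
Ltbp3: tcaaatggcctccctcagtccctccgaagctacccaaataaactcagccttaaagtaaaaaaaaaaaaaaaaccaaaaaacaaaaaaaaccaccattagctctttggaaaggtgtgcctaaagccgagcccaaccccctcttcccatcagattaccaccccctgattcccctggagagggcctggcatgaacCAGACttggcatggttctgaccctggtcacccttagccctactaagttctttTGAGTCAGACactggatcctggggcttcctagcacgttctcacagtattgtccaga

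The SMAD-type motif was CAGAC, which 49.6% of all 32851 promoters of this length in the table held. The AP-1-type motif was TGANTCA, held by 7.81% of them. The TEAD-type motif, GGAATG, was held by 14.7% of all promoters and by none of the 12 of these genes. The letters of the TATA box, TATAAA, were held by 13.6%. The SP1-type motif was GGGCGG, held by 35.7%.

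The promoters were unlike in letters. Tgfb1 had 6 SP1-type matches and none of the other motifs, in a sequence of 77.0% G and C. Tgfb2 had a TATA box, whose first letter lies at position -31 from the start, and 2 SMAD-type matches. Ltbp2 had 3 SMAD-type and 2 SP1-type matches, and Ltbp3 had 2 SMAD-type matches and 1 AP-1-type match, which overlaps a SMAD-type match. Among the 12 promoters of these genes, Tgfb2 alone held the TATA letters and Ltbp3 alone the AP-1-type letters. A match of this length is a description of the letters and not a binding site.

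All 3 ligands were higher in the transgenic section, and their order by size of the difference was Tgfb2, Tgfb3 and Tgfb1. Tgfb1, the ligand made by many immune and stromal cells and carried by platelets, had 705 UMIs or 49.0 CPM in the control and 1575 UMIs or 122 CPM in the transgenic section, which was 1.31 (1.18 to 1.44) as a log2 ratio. Its quadrants ran from 44.5 to 52.4 CPM in the control and from 115 to 132 CPM in the transgenic section, so the sections did not overlap. Tgfb2, which acts in development of the heart valves and septa, had 181 control UMIs or 12.6 CPM (quadrants 10.9 to 16.7) and 1376 transgenic UMIs or 106 CPM (90.1 to 118), which was 8.44-fold or 3.08 (2.85 to 3.31) on the log2 scale. Tgfb3, known for its part in palate fusion, had 288 control UMIs or 20.03 CPM (quadrants 17.5 to 26.3). It had 1297 transgenic UMIs or 100.1 CPM (quadrants 77.5 to 132), with a log2 ratio of 2.32 (2.14 to 2.51). For each ligand the lowest transgenic quadrant lay above the highest control quadrant, as it did for 30.4% of all genes tested. The 3 ligands together had 1174 control and 4248 transgenic UMIs, which was 2.01 (1.91 to 2.10) as a log2 ratio.

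The ligand UMIs were led by 1 gene in the control and shared by 3 genes of nearly the same size in the transgenic section. Tgfb1 held 60.1% (57.2 to 62.9) of the ligand UMIs in the control, ahead of Tgfb3 with 24.5% (22.1 to 27.1) and Tgfb2 with 15.4% (13.4 to 17.6). In the transgenic section Tgfb1 held 37.1% (35.6 to 38.5), Tgfb2 32.4% (31.0 to 33.8) and Tgfb3 30.5% (29.1 to 31.9). Tgfb1 thus had the largest share of both sections, but the order of the other ligands was turned, and in the transgenic section the intervals of Tgfb2 and Tgfb3 overlapped. Over the transgenic quadrants the share ran from 34.4% to 40.6% for Tgfb1, from 28.7% to 35.3% for Tgfb2 and from 26.4% to 35.6% for Tgfb3. These ranges overlapped, but Tgfb1 lay above Tgfb2 within every quadrant. Tgfb1 also lay above Tgfb3 in every quadrant but the last, where both were at 132 CPM and Tgfb2 was at 107 CPM. The order of Tgfb2 and Tgfb3 thus turned between quadrants. For every 100 Tgfb1 UMIs there were 25.7 Tgfb2 UMIs in the control and 87.4 in the transgenic section, and this ratio does not depend on how the sections are scaled to each other. Since each gene's UMIs also depend on its own probes, the shares are shares of UMIs and not of molecules of RNA.

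**Figure D1:**
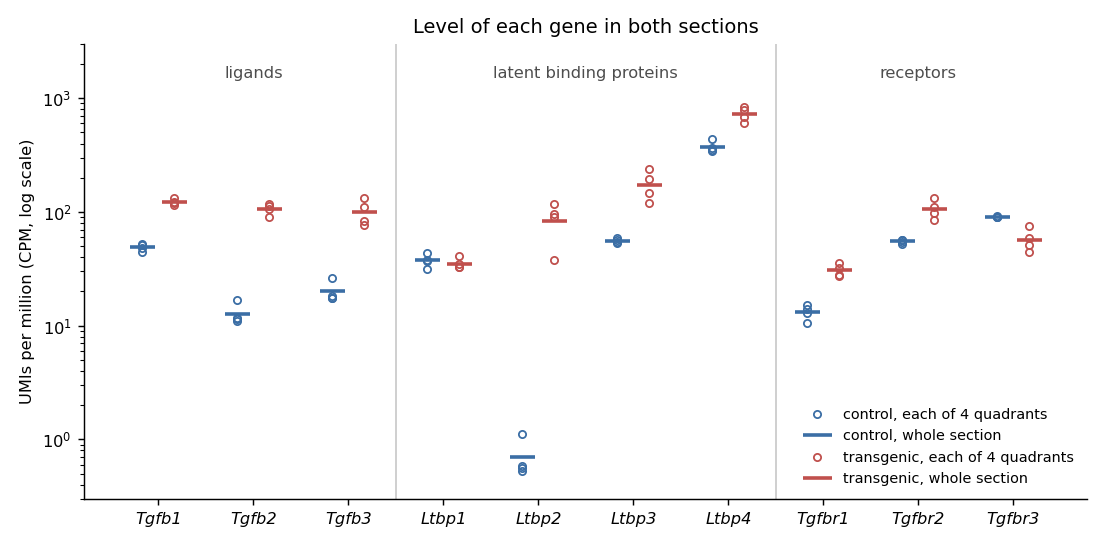
Level of each of the 10 genes in CPM (log axis) in the control (blue) and transgenic (red) section, with 1 open circle for each of 4 quadrants of a section and a bar for the whole section. Ltbp2 sits near 1 CPM in the control and at 84.1 CPM in the transgenic section, Ltbp1 overlaps between the sections, and Tgfbr3 is the gene whose transgenic quadrants all lie below the control.

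Ltbp4 led the latent binding proteins in both sections, and Ltbp2 had nearly no signal in the control but more UMIs than Ltbp1 in the transgenic section. Ltbp4, which helps assemble elastic fibers and binds latent TGF-beta weakly, had 5356 UMIs or 373 CPM in the control (quadrants 343 to 438) and 9398 UMIs or 726 CPM in the transgenic section (606 to 837), which was 0.96 (0.91 to 1.01) as a log2 ratio. Ltbp3, which binds all 3 latent ligands, had 804 UMIs or 55.9 CPM in the control (quadrants 53.0 to 59.1). It had 2256 UMIs or 174 CPM in the transgenic section (quadrants 120 to 237), with a log2 ratio of 1.64 (1.52 to 1.76). Both had every transgenic quadrant above every control quadrant, as did 30.4% of all genes tested.

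Ltbp2 is the member of the family that binds fibrillin microfibrils but is not known to bind latent TGF-beta. It had 10 UMIs in the control, in 10 different spots, or 0.696 CPM (0.334 to 1.28), and 1090 UMIs or 84.1 CPM (79.2 to 89.3) in the transgenic section. The log2 ratio was 6.92 (6.03 to 7.98), a 121-fold difference (65.5 to 253), and 2 of the 15236 genes had a higher one. The low control count sets the width of that interval, and with 1 CPM added to both sections the log2 ratio was 5.65. Within the transgenic section the quadrants ran from 37.9 to 117 CPM, a 3.10-fold range that was the widest of the 10 genes. Ltbp1, the founding member of the family and a strong binder of latent TGF-beta, had 540 UMIs or 37.6 CPM in the control (quadrants 31.7 to 43.3) and 456 UMIs or 35.2 CPM in the transgenic section (32.5 to 40.9). Its log2 ratio of -0.09 (-0.28 to 0.09) had an interval that includes 0, and its quadrants overlapped.

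Among the UMIs of the latent binding proteins, Ltbp4 held 79.8% (78.8 to 80.8) in the control and 71.2% (70.4 to 71.97) in the transgenic section. The share of Ltbp3 was 12.0% (11.2 to 12.8) in the control and 17.1% (16.5 to 17.7) in the transgenic section, that of Ltbp2 was 0.149% (0.0715 to 0.274) and 8.26% (7.79 to 8.74), and that of Ltbp1 was 8.05% (7.41 to 8.72) and 3.45% (3.15 to 3.78). Ltbp4 was thus the main latent binding protein by UMIs in both sections, with Ltbp3 next, and the order of Ltbp2 and Ltbp1 was turned. These orders held in each of the quadrants, where the share of Ltbp4 ran from 78.2% to 82.4% in the control and from 67.3% to 75.9% in the transgenic section and that of Ltbp2 in the transgenic section from 4.75% to 9.92%, above the 2.75% to 4.37% of Ltbp1. There were 1.85 Ltbp2 UMIs for every 100 Ltbp1 UMIs in the control and 239 in the transgenic section. The 4 genes together had a log2 ratio of 1.13 (1.08 to 1.17), less than that of the summed ligands.

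**Figure D2:**
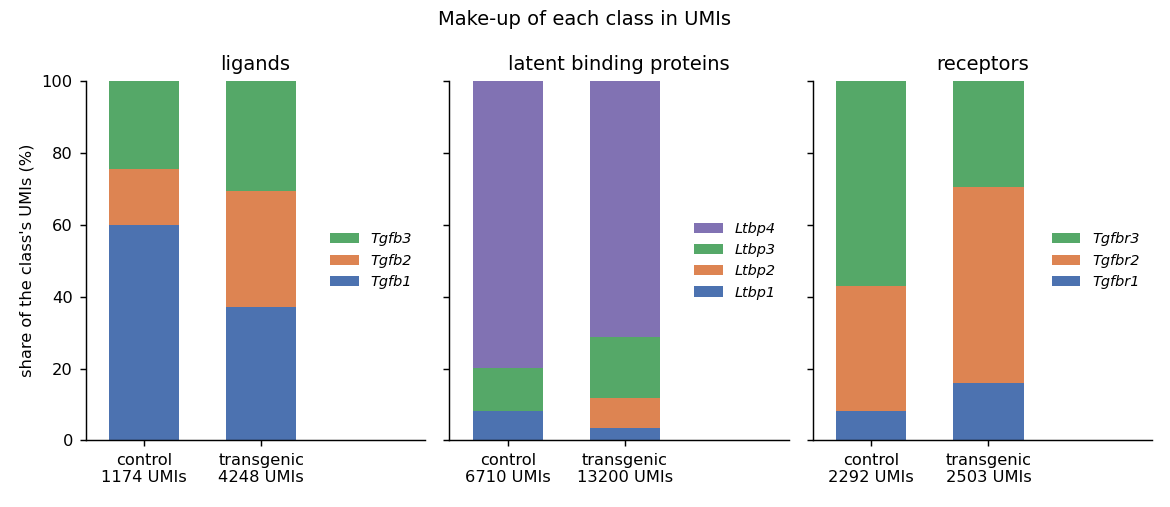
Share of each gene in the UMIs of its class (percent), with 1 stacked bar per section and the class's UMI total under the bar. Tgfb1 takes 60.1% of the control and 37.1% of the transgenic ligand UMIs, Ltbp4 takes most of the latent binding protein UMIs in both sections, and the leading receptor passes from Tgfbr3 to Tgfbr2.

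The receptors did not all differ in the same direction. Tgfbr1, the type I receptor kinase, had the fewest UMIs of them, with 190 UMIs or 13.2 CPM in the control (quadrants 10.6 to 15.2) and 397 UMIs or 30.6 CPM in the transgenic section (27.2 to 35.7), which was 1.21 (0.96 to 1.47) as a log2 ratio. Tgfbr2, the type II receptor that binds the ligand, had 794 UMIs or 55.2 CPM in the control (quadrants 52.8 to 57.2). It had 1365 UMIs or 105 CPM in the transgenic section (quadrants 84.9 to 132), with a log2 ratio of 0.93 (0.80 to 1.06). Tgfbr3, or betaglycan, is the co-receptor that presents the ligand, TGF-beta 2 above all, to the type II receptor. It was the other way around, with 1308 UMIs or 91.0 CPM in the control (quadrants 90.2 to 91.8). In the transgenic section it had 741 UMIs or 57.2 CPM (quadrants 44.8 to 75.2), with a log2 ratio of -0.67 (-0.80 to -0.54). The quadrants of the sections did not overlap for any of the 3. Of all genes tested, 30.4% had every transgenic quadrant above the control and 13.1% had every one below.

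Tgfbr3 held 57.1% (55.01 to 59.1) of the receptor UMIs in the control and 29.6% (27.8 to 31.4) in the transgenic section. Tgfbr2 held 34.6% (32.7 to 36.6) and 54.5% (52.6 to 56.5), so that the order of the 2 was turned. For every 100 Tgfbr2 UMIs there were 165 Tgfbr3 UMIs in the control and 54.3 in the transgenic section. The summed receptors differed little, with a log2 ratio of 0.28 (0.20 to 0.36), which was 0.07 above the median of all genes. The ligands, set against the same median, were 1.80 above it and the latent binding proteins 0.92 above it.

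**Figure D3:**
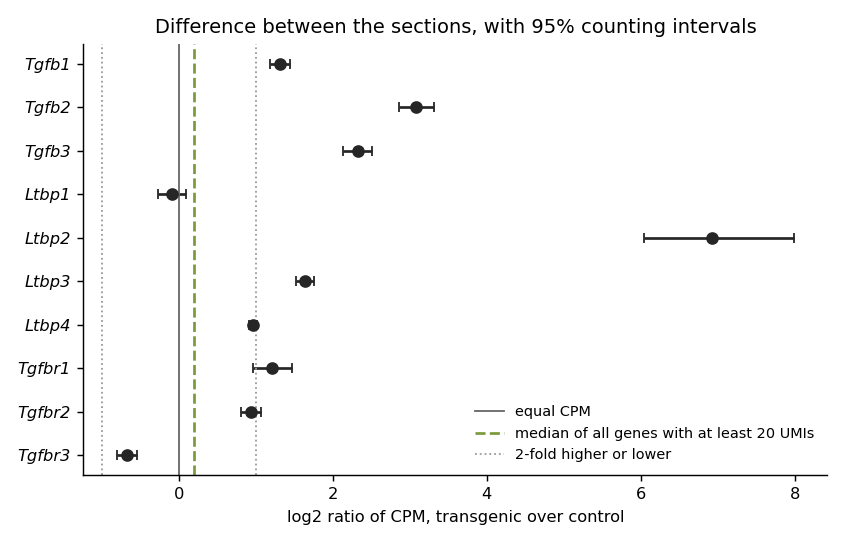
Log2 ratio of transgenic over control CPM for each of the 10 genes (points) with 95% intervals for counting error (bars). The dashed line is the median of the 15236 genes with at least 20 UMIs, 0.20, and the dotted lines mark a 2-fold difference. Ltbp2 stands apart at 6.92, and Tgfbr3 and Ltbp1 are the genes left of 0.

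Of the 10 genes, 6 lay at least 2-fold above the control (Tgfb1, Tgfb2, Tgfb3, Ltbp2, Ltbp3 and Tgfbr1), against 13.7% of all genes tested. Ltbp4 and Tgfbr2 lay just inside the 2-fold limit, at 1.95-fold (1.88 to 2.01) and 1.91-fold (1.75 to 2.09). None was at least 2-fold lower, against 5.61% of all genes. Every transgenic quadrant lay above every control quadrant for 8 of the 10 genes, against 30.4% of all genes, and below for 1, Tgfbr3, against 13.1%. The median log2 ratio of the 10 genes was 1.26, beside 0.20 for all genes tested. The 10 genes were chosen with earlier results of these data known, so these counts and this median describe them only. Without the blood-rich spots the log2 ratios were 3.10 for Tgfb2, 6.93 for Ltbp2, 0.98 for Ltbp4 and -0.66 for Tgfbr3, and the same number of genes, 8, had quadrants that lay wholly above the control.

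The share of spots with at least 1 UMI was higher in the transgenic section for most of the genes. Ltbp4 was found in 96.3% of the spots of each section, and in 99.7% of the transgenic spots without the blood-rich ones. Tgfb1 was found in 41.8% (39.1 to 44.6) of control and 77.3% (74.4 to 79.9) of transgenic spots, Tgfb2 in 13.5% (11.7 to 15.6) and 70.6% (67.5 to 73.5), and Tgfb3 in 19.4% (17.3 to 21.7) and 66.5% (63.3 to 69.5). Most control spots lacked a Tgfb2 UMI and most transgenic spots held one. Ltbp2 was found in 10 of 1256 control spots, never with more than 1 UMI, and in 491 of 924 transgenic spots, with up to 14 UMIs in a spot. Ltbp3 was found in 45.7% and 81.7% of spots, Tgfbr1 in 13.9% and 33.8%, Tgfbr2 in 44.7% and 70.3%, and Tgfbr3 in 63.6% and 51.6%.

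Transgenic spots were deeper. Shares were therefore also computed at an equal depth of 8134 UMIs, for which 140 control and 78 transgenic spots were too shallow. The shares were then 32.4% and 62.6% for Tgfb1, 9.92% and 56.0% for Tgfb2, 14.4% and 51.8% for Tgfb3, and 0.669% and 41.6% for Ltbp2. At equal depth Ltbp1 was at 25.9% and 24.6%, whereas before thinning it was at 33.8% and 37.6%, so its direction turned with depth. The share was higher in the transgenic section for 9 of the 10 genes before and for 8 after thinning. The same count over all genes was not made, so this one describes the 10 genes only. At least 1 ligand UMI was found in 59.1% of control and 92.9% of transgenic spots, and at equal depth in 48.0% and 90.6%. Both signaling receptors, Tgfbr1 and Tgfbr2, were found in the same spot in 6.45% (5.15 to 7.95) of control and 25.5% (22.8 to 28.5) of transgenic spots, without thinning. Each of these receptors was by itself in more transgenic than control spots. Whether they met more often than their single shares imply was not tested.

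A score of likeness between neighboring spots was higher in the transgenic section for most of the genes, as it was for most genes in all. The sections were not compared at equal UMI counts of a gene. Moran's I, a score that is near 0 where neighboring spots are no more alike than distant ones and nears 1 where they are alike, was deposited for each gene. In the control it was highest for Ltbp4, at 0.055, and for Tgfb3, at 0.040, and at 0.020 or less for the other genes, where the median gene had 0.00239. Small as these scores are, Ltbp4 lay above 97.9% and Tgfb3 above 96.7% of all genes in the control. In the transgenic section it was 0.482 for Ltbp4, 0.376 for Ltbp2, 0.287 for Ltbp3, 0.229 for Tgfb3, 0.129 for Tgfb2, 0.127 for Tgfbr2 and 0.085 for Tgfb1. The lowest scores of the 10 genes there were those of Tgfbr3 (0.069), Tgfbr1 (0.024) and Ltbp1 (0.013), and of these only Ltbp1 was below the median gene. The score was higher in the transgenic section for 9 of the 10 genes, as it was for 74.3% of all genes, and Ltbp1 was the exception. The median gene had 0.0198 in the transgenic section. Among the 12441 genes with at least 20 UMIs there, Ltbp4 lay above 98.7%, Ltbp2 above 97.7% and Tgfb3 above 95.1%. The rank of Ltbp4 and Tgfb3 was thus much the same in both sections, as was that of Tgfbr2 (90.0% and 90.5%). Other ranks were higher in the transgenic section: Ltbp2 (19.8% and 97.7%), Ltbp3 (43.4% and 96.5%), Tgfbr3 (35.0% and 82.9%), Tgfb2 (65.7% and 90.7%) and Tgfb1 (73.2% and 86.2%). With 10 control UMIs, Ltbp2 was under the minimum of 20 in the control, so its rank there says little about its pattern. The ranks of Ltbp1 (87.5% and 38.3%) and Tgfbr1 (67.8% and 56.0%) were lower in the transgenic section. By quadrants, the highest over the lowest CPM was smaller in the transgenic section for Tgfb1 (1.18 in the control and 1.16), Tgfb2 (1.53 and 1.31), Ltbp1 (1.37 and 1.26) and Tgfbr1 (1.43 and 1.31). It was larger in the transgenic section for the rest.

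The blood-rich spots had lower CPM of Ltbp4 and Ltbp2 than the rest, but CPM counts erythroid UMIs in the total. In the 54 transgenic blood-rich spots erythroid markers held a median of 76.8% of a spot's UMIs. A lower CPM there thus need not mean less of a gene relative to the other RNA, and scores with these spots share this dilution. The blood-rich spots held 328 CPM (266 to 401) of Ltbp4 in the transgenic section, against 735 CPM in the other spots. For Ltbp2 it was 44.0 CPM (23.4 to 75.3) against 85.1 CPM. A Moran's I computed from log2 values over the 6 neighbors of each spot was 0.538 for Ltbp4 with all transgenic spots and 0.325 without the blood-rich ones. For Ltbp2 it was 0.445 and 0.429, for Ltbp3 0.318 and 0.290, for Tgfb3 0.271 and 0.232, and for Tgfb1 0.088 and 0.037. It was 0.151 and 0.102 for Tgfb2, 0.1296 and 0.0876 for Tgfbr2, and 0.071 and 0.046 for Tgfbr3. For Tgfbr1 it was 0.021 with all spots and 0.0009 without the blood-rich ones, below the 0.0025 of the control, so its direction turned and 8 of the 10 genes were left with a higher score in the transgenic section. The unevenness of Ltbp2, Ltbp3 and Tgfb3 was thus nearly as large without those spots, while that of the other genes named was smaller.

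**Figure D4:**
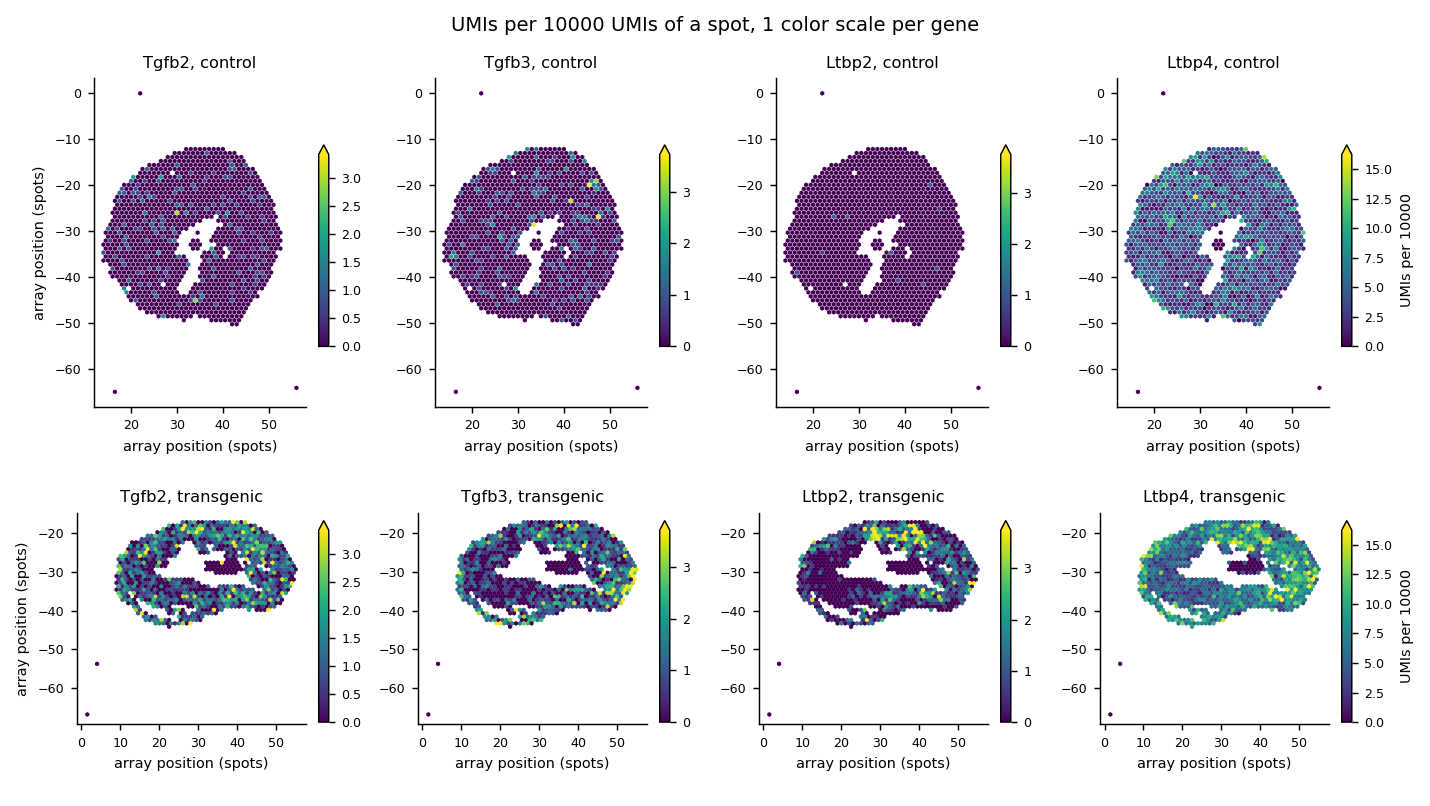
Maps of Tgfb2, Tgfb3, Ltbp2 and Ltbp4 over the control (top) and transgenic (bottom) section, where each dot is a spot at its position on the array (in spots) and its color is the gene's UMIs per 10000 UMIs of the spot, on 1 scale per gene. Ltbp2 is dark over the control and bright in parts of the transgenic wall, Ltbp4 covers both sections, and the dark group of spots inside the transgenic section is rich in erythroid UMIs.

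Differences by distance from the tissue edge were small. Edge spots, which lack 1 or more of their 6 neighbors, were 18.3% of the control and 33.7% of the transgenic spots. In the transgenic section Tgfb3 was 1.39-fold (1.16 to 1.66) higher at the edge than in spots 3 or more steps inside, whereas Ltbp2 at the edge was 0.765 times (0.633 to 0.925) its inner level. Ltbp4 was at 1.12-fold (1.05 to 1.19) and Tgfbr3 at 1.25-fold (1.01 to 1.57), and the intervals of the other 6 genes included 1.

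Within the transgenic section the genes were higher where fibrillar collagen was. Spots were ranked by the share of their UMIs from Col1a1, Col1a2, Col3a1, Col5a1 and Col5a2, and the 308 spots with the highest share were set against the 308 with the lowest. Ltbp2 had 145 CPM in the collagen-rich and 22.6 CPM in the collagen-poor transgenic spots, 6.43-fold (5.14 to 8.12), and 5.63-fold (4.58 to 6.99) among spots that were not blood-rich. Ltbp3 differed 2.76-fold (2.44 to 3.12), Tgfb3 2.64-fold (2.25 to 3.11) and Ltbp4 1.97-fold (1.86 to 2.08). Tgfbr2 differed 1.77-fold (1.53 to 2.04), Tgfbr1 1.76-fold (1.34 to 2.32), Tgfb2 1.57-fold (1.36 to 1.81) and Tgfb1 1.23-fold (1.08 to 1.40). Tgfb1 and Tgfb2 were thus spread more evenly with respect to collagen than Tgfb3.

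In the control, the same ranking gave 1.67-fold (1.14 to 2.46) for Tgfb2, 1.49-fold (1.11 to 2.01) for Tgfb3 and 1.33-fold (1.25 to 1.42) for Ltbp4, and the intervals of Tgfb1 and Tgfbr1 included 1. Ltbp2 had too few control UMIs for such a ratio. Levels of the collagen-poor transgenic spots can be set beside the whole control section: Tgfb2 had 80.3 CPM there, 6.38 times its control level, and Tgfb1 had 106 CPM, 2.17 times its control level. Ltbp2 had 22.6 CPM, 32.5 times its control level against 121 times over the whole section, and Tgfb3 had 52.3 CPM, 2.61 times against 5.00 times. For Ltbp3 the ratio was 1.58 there and 3.11 over the whole section, for Ltbp4 1.28 and 1.95, for Tgfbr1 1.59 and 2.32, and for Tgfbr2 1.29 and 1.91. For Tgfbr3 it was 0.508 and 0.629, and for Ltbp1 0.710 and 0.937. Every one of the 10 ratios was lower in collagen-poor spots than over the whole section, by over 1.5 times for Ltbp2, Ltbp3, Tgfb3 and Ltbp4. This drop was built in, since each gene rose with collagen in the transgenic section and the control was not split. In collagen-poor control spots Tgfb2 had 9.72 CPM, Tgfb3 17.0 CPM and Ltbp4 328 CPM, below their levels over the whole control. Tgfb1 (49.2 CPM) and Tgfbr1 (13.4 CPM) were not below theirs. The 8 genes above the control remained above it in the collagen-poor transgenic spots. Those collagen-poor transgenic spots still had 0.188% of their UMIs from the 5 collagens, beside 0.161% in the collagen-rich spots of the control, so the ranks of the sections do not meet at 1 collagen level.

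**Figure D5:**
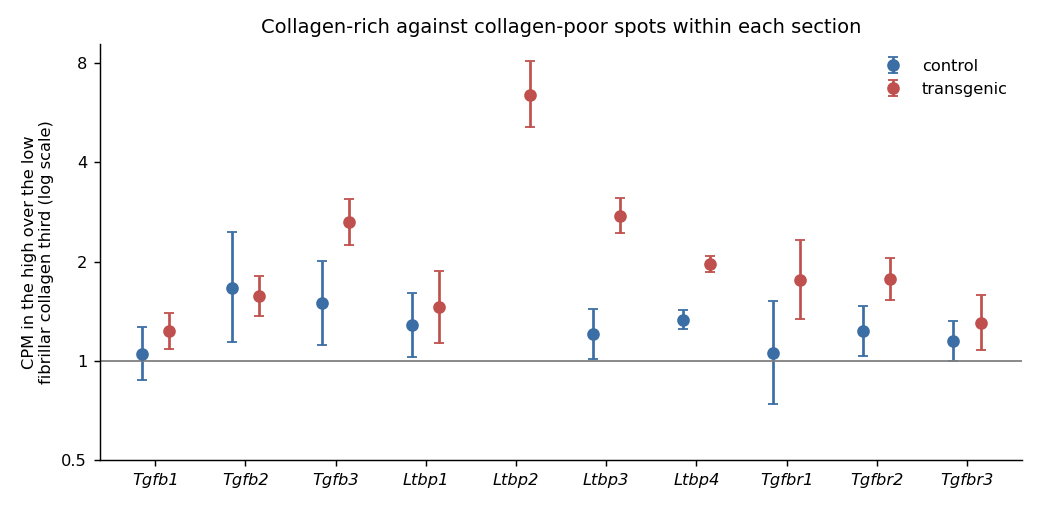
CPM of each gene in the collagen-rich spots over its CPM in the collagen-poor spots of the same section (log axis), for the control (blue) and transgenic (red) section, with 95% intervals for counting error as bars. Ltbp2, shown for the transgenic section alone, has the largest ratio, 6.43, followed by Ltbp3 and Tgfb3.

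Ranking by cardiomyocyte markers gave the opposite picture. In the 308 transgenic spots richest in those markers Ltbp2 had 33.3 CPM and in the 308 poorest 141 CPM, a ratio of 0.236 (0.195 to 0.283). The ratio was 0.389 for Ltbp3, 0.429 for Tgfb3, 0.540 for Ltbp4 and 0.555 for Tgfbr2, and it was nearer 1 for Tgfb2 (0.744) and Tgfb1 (0.778). Ranking by 9 fibroblast markers other than collagen gave smaller ratios, 1.48 for Ltbp2, 1.44 for Tgfb3, 1.39 for Ltbp4 and 1.01 (0.88 to 1.15) for Tgfb2. Ranking by macrophage markers gave 1.73 for Ltbp2, 1.59 for Tgfb3, 1.22 for Tgfb2 and 1.15 for Tgfb1. Ranking by endothelial markers went the other way for some of the genes, with 0.448 (0.381 to 0.525) for Ltbp2, 0.599 for Ltbp3, 0.756 for Tgfb3 and 0.782 for Ltbp4. The intervals included 1 for Tgfb1, at 1.03 (0.912 to 1.17), Tgfbr3, at 1.02 (0.85 to 1.22), Tgfbr1, at 0.87 (0.67 to 1.11), and Ltbp1, at 0.82 (0.65 to 1.05). In the control, ranking by cardiomyocyte markers gave 0.522 (0.348 to 0.775) for Tgfb2, 0.664 for Tgfb3, 0.772 for Tgfbr2 and 0.834 for Ltbp4. It gave 0.902 for Ltbp3 and 0.930 for Tgfb1, and both intervals included 1. Ranking control spots by fibroblast markers gave 1.45 (1.01 to 2.11) for Tgfb2, 1.25 (0.939 to 1.67) for Tgfb3 and 1.36 for Ltbp4. All of these ratios compare spots of 1 section that share a library and are not replicates.

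For Ltbp2 and the leading gene of each class, the genes most alike in pattern over spots were ranked. Likeness was Pearson's r over spots of log2(UMIs per 10000 + 1), among genes with at least 200 UMIs in the section, and it is a description, since all spots share 1 library. Over the 923 transgenic spots with a UMI, the 5 genes most like Ltbp2 were Postn, which encodes the matricellular protein periostin (r = 0.51), Thbs4, a thrombospondin (0.51), Col5a2 and Col8a1, which are collagens (0.49 and 0.48), and Clu, or clusterin (0.48). For Ltbp4 they were Igfbp7 (0.73), Sparc (0.69), Ccn2 (0.69), Mgp (0.67) and Gpx3 (0.66), and without the blood-rich spots the r of Igfbp7 was 0.60 and that of Ccn2 0.48. The r of Postn with Ltbp2 was 0.50 without them. For Tgfb1 no gene went above 0.30 and for Tgfbr2 the highest was Igfbp7 with 0.37. Without the blood-rich spots Igfbp7 was at 0.30 with Tgfbr2, and with Tgfb1 Gpx3 was at 0.21 in place of 0.30 and Ctsd at 0.15 in place of 0.29. In the control the highest r was 0.23, of Ltbp4 with Gsn, and no other leading receptor or ligand went above 0.14. With the UMIs per spot, r in the transgenic section was 0.37 for Ltbp4, 0.25 for Ltbp2, 0.23 for Tgfb1 and 0.20 for Tgfbr2. In the control it was 0.07 for Ltbp4 and 0.04 for Tgfb1. The part of spot depth in the likeness was not tested.

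Genes that process and activate latent TGF-beta were mostly higher in the transgenic section. Of 15 such genes 9 were at least 2-fold higher, against 13.7% of all genes tested, and 1 at least 2-fold lower, against 5.61%. Their median log2 ratio was 1.20 beside 0.20 for all genes. This list and those below were chosen with earlier results of these data known, so their counts describe the lists only. Thbs1, which encodes the activator thrombospondin-1, had 224 control and 1673 transgenic UMIs, which was 3.05 (2.85 to 3.26) as a log2 ratio. The protease gene Mmp14 had a log2 ratio of 2.20 (1.92 to 2.497) and the integrin subunit gene Itgb5 one of 1.93 (1.84 to 2.02). Itgb6, the subunit of another activating integrin, was the gene that was lower, with 388 control and 33 transgenic UMIs and a log2 ratio of -3.41 (-3.96 to -2.89). Mmp9 and Plau, which are protease genes, were at 0.15 (-0.53 to 0.83) and 0.41 (-0.18 to 1.02). Itgb1 had the most UMIs of the list and a log2 ratio of 1.20 (1.14 to 1.26).

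Among the partners of the latent binding proteins in microfibrils and elastic fibers most genes were higher. Of 16 genes 14 were at least 2-fold higher, against 13.7% of all genes tested, and none at least 2-fold lower, against 5.61%. Their median log2 ratio was 2.49. Lox, which encodes the enzyme lysyl oxidase that cross-links elastin and collagen, had 32 control and 1540 transgenic UMIs, which was 5.74 (5.24 to 6.29) as a log2 ratio. Eln, the elastin gene, had 681 and 20048 UMIs, which was 5.03 (4.92 to 5.14) as a log2 ratio, and Mfap4, a microfibril-associated protein gene, 231 and 4486 UMIs, which was 4.43 (4.24 to 4.63) as a log2 ratio. Fbln1 and Efemp2, which encode fibulins, were at 0.87 and 1.09, and Efemp1 was the gene below 0, at -0.41 (-0.88 to 0.06).

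Most listed genes for proteins that bind TGF-beta or related ligands outside the cell and the listed targets of the pathway were also higher. Their counts stand beside the 13.7% of all genes tested that were at least 2-fold higher. Of 10 binding proteins 9 were at least 2-fold higher, with a median log2 ratio of 2.39: the small proteoglycan gene Fmod was at 4.38 (3.94 to 4.86), Cilp at 4.27 (3.96 to 4.60), the follistatin-like gene Fstl3 at 3.77 (3.40 to 4.17), and Bgn, which had the most UMIs in the transgenic section but not in the control, at 2.79 (2.74 to 2.85). Cilp2 and Htra3 were at 1.02 each. Htra1, a secreted protease gene, was lower, at -1.88 (-1.997 to -1.76). Of 20 target genes 18 were at least 2-fold higher and all 20 were above 0, with a median of 2.05. That list was chosen with earlier results of these data known and shares collagen genes with the collagen ranking, so its count is only a description. Cthrc1 had 8 control and 538 transgenic UMIs, which was 6.22 (5.23 to 7.44) as a log2 ratio. Comp was at 5.91 (5.55 to 6.30) and Timp1 at 4.82 (4.26 to 5.43). Ccn2, at 4.37 (4.29 to 4.44), had the most UMIs in the transgenic section, though Col3a1, Acta2, Col1a2 and Col1a1 had more in the control. Plod2 was at 1.01. The smooth muscle genes Acta2 and Tagln, which mark myofibroblasts as well, were the ones under 2-fold, at 0.50 (0.44 to 0.55) and 0.63 (0.48 to 0.78).

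Inside the cell the differences were smaller. Of 8 SMAD genes 3 were at least 2-fold higher, against 13.7% of all genes tested, with a median log2 ratio of 0.55. They were the inhibitory SMAD genes Smad6, at 2.00 (1.77 to 2.24), and Smad7, at 1.56 (1.36 to 1.77), and Smad9, at 1.04 (0.47 to 1.63). Of the 2 effectors of TGF-beta, Smad3 was at -0.38 (-0.61 to -0.15) and Smad2, named after its value was seen, at 0.39 (0.18 to 0.61). The shared partner Smad4 was at -0.01 (-0.31 to 0.28) and Smad5 at 0.08 (-0.08 to 0.25). Of 13 intracellular regulators 4 were at least 2-fold higher, with a median of 0.75, led by Pmepa1, at 2.12 (2.03 to 2.22), Bambi, at 1.64 (1.44 to 1.84), and Tgif1, at 1.55 (1.17 to 1.94), all of which are known to dampen the pathway. Zfyve9, which encodes an anchor for SMAD proteins, was at -0.30 (-0.49 to -0.11), Strap at -0.03, Tgif2 at 0.22 and Ski, with the most UMIs, at 0.97. Of 10 related receptors and co-receptors 1 was at least 2-fold higher (Amhr2, at 1.06, from 17 and 32 UMIs), no more than the 13.7% of all genes. Their median was 0.66, and Eng, the endoglin gene, had the most UMIs and was at 0.69 (0.61 to 0.77). The BMP receptor gene Bmpr1b was at 0.96 (-0.40 to 2.42), from 8 and 14 UMIs, and Bmpr2 was at 0.92 (0.78 to 1.06). Bmpr1a was at -0.04 (-0.24 to 0.17) and the activin receptor genes Acvr2a and Acvr2b at -0.13 (-0.46 to 0.19) and -0.29 (-0.68 to 0.10).

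Marker lists of the cell types in the heart wall did not all lie on the same side of the 0.20 of all genes. The median log2 ratio was 0.06 over 9 fibroblast markers, which ranged from Clec3b at -1.56 to Tcf21 at 2.01, 0.05 over 9 endothelial markers and 0.11 over 8 mural markers, all below the median of all genes. The summed fibroblast markers ran from 1072 to 1210 CPM over the control quadrants and from 1196 to 1346 CPM over the transgenic ones. Macrophage markers had a median of 0.91, with 4 of 10 at least 2-fold higher, against 13.7% of all genes tested, led by Cd163 at 1.28 and Csf1r at 1.11. Their summed level ran from 303 to 344 CPM over the control quadrants and from 546 to 695 CPM over the transgenic ones. Cardiomyocyte markers had a median of -0.81 and ran from Mb at -1.77 to Tnnt2 at 0.17. Of these 10 genes 5 were at least 2-fold lower, against 5.61% of all genes tested. Erythroid markers had a median of 3.39 and platelet markers, whose cells carry Tgfb1, one of 0.40. Medians were 0.59 over 9 mesothelial, 0.21 over 7 lymphocyte, 0.08 over 3 neutrophil, 1.20 over 3 atrial and 1.46 over 4 skeletal muscle markers. The part of any of these cells in the members' differences was not tested.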

How the data were processed

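Spatial expression was measured in 1 control and 1 transgenic heart section. The authors deposited raw UMI counts for every gene in every spot, made with Space Ranger 2.0.0, which the file header names, and the submitters' processing notes also name bcl2fastq and build GRCm39 (mm39). The probe set is not given in the sources used here. The deposited Moran's I is a score per gene and section, computed by the authors' software.

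For each section the UMIs of all its spots were added up per gene, divided by the section's total and compared as log2 ratios, since spots are not replicates. The study's own test over spots was not repeated. Genes with at least 20 UMIs over both sections entered counts and medians, and a count of 0 was set to 3 UMIs, or 0.209 CPM (control) and 0.232 CPM (transgenic). The intervals were run on simulated counts that held counting error alone, so this run cannot show how they cover spread between animals. Members and gene lists were chosen with earlier results of these data known. Genes to name were the 10 members, Top2b, the 3 highest, the 3 lowest and the one with most UMIs of each list, and the 5 genes most like Ltbp2 and like the leading gene of each class. Of those chosen so in the collagen and marker lists, and for likeness in the control or to Tgfb1 and Tgfbr2, only some are printed. Of the list genes, Ppm1a, Actc1 and Hba-a1 were not used here.

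Scaling was also tried with TMM (edgeR 4.0.16) and with size factors (DESeq2 1.42.0, both in R 4.3.3), and further alternatives were totals that left out the 50 most abundant genes, ratios relative to the median of all genes, 1 CPM added, subsets of spots, a mean over spots, other minimum counts, thinning and a second Moran's I. Leaving out spots with over 10% erythroid UMIs was added after the data were seen. The code ran in Python 3.11.15 with pandas 2.3.3, scipy 1.17.1 and numpy 2.4.6, and figures were drawn with matplotlib 3.10.9. Promoter sequences came from RefSeq on GRCm38.p6, which is not the build of the files.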

Additional observations from a re-analysis of the deposited data

How the results depend on the processing

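Every log2 ratio of the 10 genes kept its direction under the 11 alternatives tried, and 6 genes were at least 2-fold higher and 0 at least 2-fold lower under each. The choice of scaling moved the summed classes by more than counting error. The summed ligands were at 1.85 with TMM factors, 1.86 with DESeq2 size factors and 1.80 relative to the median of all genes. They were at 1.87 in the 50% of spots richest in cardiomyocyte markers and at 2.17 in the 50% poorest in erythroid markers. The summed latent binding proteins were at 0.97 with TMM factors, 0.98 with DESeq2 size factors, 1.04 with totals without the 50 most abundant genes, 0.92 relative to the median of all genes, 0.81 in the cardiomyocyte-rich spots and 1.07 as a mean over spots. In the same order of the first 5 of these settings the summed receptors were at 0.12, 0.13, 0.19, 0.075 and 0.088. The median of all genes itself was 0.20, and 0.05 with TMM factors or DESeq2 size factors. In the cardiomyocyte-rich transgenic spots Tgfb1, Tgfb2 and Tgfb3 held 40.4%, 34.2% and 25.4% of the ligand UMIs, and Ltbp1, Ltbp2, Ltbp3 and Ltbp4 held 4.25%, 5.98%, 15.6% and 74.2% of the latent binding protein UMIs. Ltbp2 held 8.92% without edge spots and, in the erythroid-poor spots, 8.79%, beside 17.8% for Ltbp3 and 69.9% for Ltbp4. The other 128 values of these results stayed within counting error or, for counts, within 1.5 times. The log2 ratio of Tgfb2 ranged from 2.87 to 3.17, that of Ltbp2 from 5.65 to 7.12 and that of Tgfbr3 from -0.87 to -0.57. No paired analysis was possible because each group holds 1 section. Depth limits Ltbp2 in the control, where 10 UMIs set the ratio, and 1 section per genotype limits every comparison.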

Other observations

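Ligands of the TGF-beta superfamily other than TGF-beta itself, which signal through related receptors, were mixed. Of 16 such genes with at least 20 UMIs, 6 lay at least 2-fold above the control, against 13.7% of all genes tested. None lay at least 2-fold below, against 5.61%, and the median log2 ratio was 0.79 beside 0.20 for all genes. Gdf6 had 18 control and 483 transgenic UMIs, which was 4.90 (4.22 to 5.66) as a log2 ratio. Gdf15, a stress-induced cytokine gene, had 63 and 737 UMIs, which was 3.70 (3.33 to 4.09) as a log2 ratio, and Inhbb, which encodes an activin subunit, had 37 and 282 UMIs, which was 3.08 (2.58 to 3.62) as a log2 ratio. Bmp6 had the most UMIs of these genes, 481 and 1264, and a log2 ratio of 1.54 (1.39 to 1.70). At the other end Bmp7 (46 and 25 UMIs), Lefty1 (12 and 8) and Amh (34 and 24) had log2 ratios of -0.73, -0.43 and -0.35. Each of their intervals included 0.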
